A study of Mus musculus with 6 samples.

Results

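The liver makes most of the plasma proteins of complement and of blood clotting, and 45 genes for such proteins were followed in livers of insulin-resistant (IR) mice that had received insulin or vehicle. The members were the rows of the count table with 1 of 45 listed gene names, 20 of complement and 25 of coagulation, out of 54532 genes in all. Each name was found once. All 45 were among the 13377 genes that passed the filter on low counts, and none passed through 1 group alone, because the lowest count of any member in any library was 17 (Cfb). Male C57BL/6J mice were given a high-fat diet (HFD) for 6 weeks from 8 weeks of age, which all 6 animals shared. After a 16 h fast, 3 of them received an intraperitoneal dose of 0.75 units of insulin per kg of body weight and 3 the bovine serum albumin (BSA) vehicle, and whole livers were taken 6 h later. Insulin was thus compared with vehicle within the IR state only, and chow-fed or uninjected mice were not analysed here. The question here was how complement and coagulation transcripts, side by side, differed between insulin-treated and vehicle-treated livers.

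Complement is a cascade of plasma proteases. It starts from recognition molecules such as C1 and the mannose-binding lectins, passes through the convertases that cleave C3, and ends in the pore that C5b to C9 form in a target membrane. Clotting is a second protease cascade, in which vitamin K-dependent factors made in hepatocytes generate thrombin and thrombin turns fibrinogen into fibrin, while antithrombin, protein C and heparin cofactor II hold it back and plasmin dissolves the clot. Many of these genes are driven by liver-enriched transcription factors (HNF1, HNF4, C/EBP and forkhead proteins), the fibrinogen genes are also induced by interleukin-6 in the acute phase response, and insulin excludes the forkhead protein FOXO1 from the nucleus.

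Promoter sequences are shown for the member with the smallest p of each class, C9 and Klkb1, and for the 3 fibrinogen chains, which lie next to each other on chromosome 3 and were all lowest in the same library. Each is the 250 bases before the RefSeq start in GRCm38.p6, read 5′ to 3′ on the strand of the gene. Capitals mark matches on either strand to 4 of 5 motifs searched: forkhead (GTAAACA), an interleukin-6 response element (CTGGGAA), C/EBP (TTGCNNAA) and HNF1 (GTTAATNAT). The fifth, HNF4 (CAAAGTCCA), had no match in any of the 36 members with a RefSeq promoter. No marked match overlaps another. The RefSeq start lay 19 bases downstream of the GENCODE start for C9, 24 for Klkb1 and 77 for Fga, and the starts were identical for Fgb and Fgg.
C9, chr15:6445096-6445345, plus strand: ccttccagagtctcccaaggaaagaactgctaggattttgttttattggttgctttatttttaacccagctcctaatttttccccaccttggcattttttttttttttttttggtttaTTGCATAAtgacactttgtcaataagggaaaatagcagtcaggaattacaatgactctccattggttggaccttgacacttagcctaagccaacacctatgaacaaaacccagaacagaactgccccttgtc
Klkb1, chr8:45294836-45295085, minus strand: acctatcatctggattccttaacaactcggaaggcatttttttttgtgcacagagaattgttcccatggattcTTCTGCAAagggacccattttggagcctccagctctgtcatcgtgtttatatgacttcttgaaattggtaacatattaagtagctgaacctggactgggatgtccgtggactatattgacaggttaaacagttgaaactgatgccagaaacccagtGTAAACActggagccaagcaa
Fga, chr3:83025903-83026152, plus strand: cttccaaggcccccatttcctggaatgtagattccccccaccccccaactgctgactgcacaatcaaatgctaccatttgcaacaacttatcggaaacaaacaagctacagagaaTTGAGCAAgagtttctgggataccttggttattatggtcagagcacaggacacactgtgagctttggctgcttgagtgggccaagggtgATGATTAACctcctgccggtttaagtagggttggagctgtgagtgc
Fgb, chr3:83049864-83050113, minus strand: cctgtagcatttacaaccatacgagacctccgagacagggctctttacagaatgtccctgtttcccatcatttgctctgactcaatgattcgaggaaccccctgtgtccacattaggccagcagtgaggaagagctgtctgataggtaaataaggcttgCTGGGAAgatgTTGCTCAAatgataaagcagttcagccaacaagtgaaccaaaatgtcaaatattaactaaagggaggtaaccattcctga
Fgg, chr3:83007474-83007723, plus strand: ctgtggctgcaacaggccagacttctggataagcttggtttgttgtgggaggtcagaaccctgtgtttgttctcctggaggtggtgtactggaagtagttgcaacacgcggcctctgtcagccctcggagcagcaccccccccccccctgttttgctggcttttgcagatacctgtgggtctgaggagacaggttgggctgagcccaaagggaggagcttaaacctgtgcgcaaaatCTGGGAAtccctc
C9, which encodes the pore-forming last component of the membrane attack complex, has a C/EBP match 132 to 125 bases upstream of the start. Klkb1, which encodes plasma prekallikrein, has a forkhead match 21 to 15 bases upstream and a C/EBP match at 177 to 170. Fga holds a C/EBP match at 135 to 128 and an HNF1 match at 46 to 38 bases, Fgb an interleukin-6 element at 91 to 85 followed by a C/EBP match at 80 to 73, and Fgg an interleukin-6 element at 13 to 7. The windows of C8g and Serpind1 hold none of the 5 motifs. RefSeq promoters were found for 36 of the 45 members. The forkhead letters occurred in 2 of the 36 (F11 and Klkb1, 5.56%) and in 3.17% of 32851 mouse promoters of the same length. C/EBP letters occurred in 10 members (27.8%) against 9.56% of all promoters, the interleukin-6 element in 5 (13.9%) against 9.10%, HNF1 in 4 (C4bp, Hc, F13b and Fga, 11.1%) against 0.737%, and HNF4 in 0 against 0.384%. These matches describe letters in the window and do not show that a factor binds there. Each of the 36 members was searched in 1 promoter, the nearest to its GENCODE start. The 32851 promoters were neither reduced to 1 per gene nor limited to genes expressed in liver, so the shares compare unlike sets.

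The 6 libraries held 18449986 to 21827619 counts, of which the 45 members took 4.65% to 5.88%. Across genes, which are no independent replicates, Pearson's r of log2 CPM was 0.980 to 0.985 between insulin libraries. It was 0.878 to 0.948 between vehicle libraries, with vehicle replicates 2 and 3 standing apart. Vehicle replicate 1 had r of 0.9821 to 0.9879 with the insulin libraries, against 0.9205 and 0.9478 with vehicle replicates 2 and 3. Hepatocyte markers were abundant in every library. Their summed level over the 7 of 8 listed markers that were analysed was 64046 CPM to 177957 CPM, highest in vehicle replicate 2. Alb alone gave 138554 CPM of the sum in vehicle replicate 2 and 38255 CPM of that in insulin replicate 3. The sum thus mostly reflected Alb and is no measure of hepatocyte content. Erythroid markers were highest in vehicle replicate 2 as well, at 1587 CPM against 312 to 626 CPM elsewhere. Platelet markers summed to 2.54 to 5.07 CPM, neutrophil markers to 3.91 to 74.1 CPM, and 5 of 6 pancreas markers were at 0 in all libraries.

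Levels are given as CPM, counts scaled to a common library size with TMM factors, and are compared between genes only per kilobase of the longest protein-coding transcript. By that measure the fibrinogen chains led the members, with means over the 6 libraries of 4017 CPM per kb for Fgg, 3119 for Fga and 1979 for Fgb. C3, the central component of complement, followed with 1462 CPM per kb, the highest of the complement genes, and Serping1, which encodes the C1 inhibitor, was the next complement gene at 478. Between them stood the carrier and adhesive proteins Ambp (1310 CPM per kb) and Vtn (1023), prothrombin F2 (811), the kininogen Kng1 (758) and plasminogen Plg (534). The lowest were Cfb with 1.24 CPM per kb, C2 with 12.8, properdin Cfp with 15.5 and F11 with 16.5. Ranges over libraries of most neighbours in this order overlap, so the order within the middle of the plot is not fixed by the data. Properdin is known mainly as a product of white blood cells. In bulk liver RNA, fewer cells of a type and less RNA per cell cannot be told apart.

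**Figure D1:**
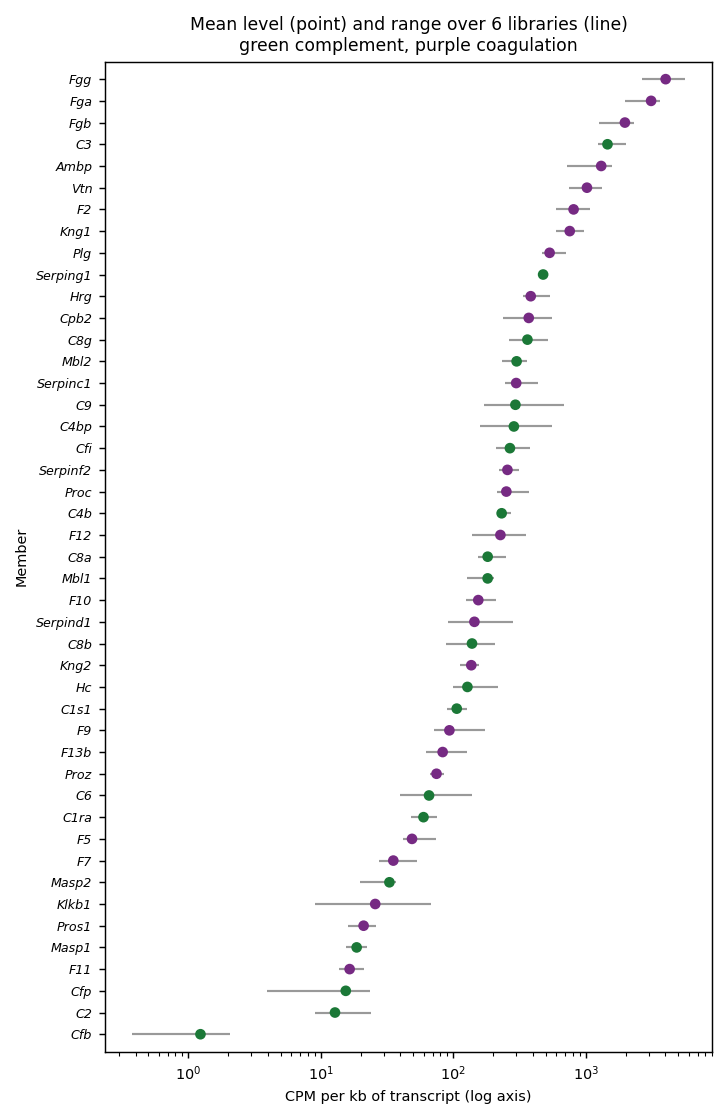
Level of each of the 45 members on a log axis, in CPM per kb of transcript, as mean (point) and range (line) over the 6 libraries, green for complement and purple for coagulation genes. The fibrinogen chains Fgg, Fga and Fgb and complement C3 stand at the top, and Cfb stands alone at the bottom with 1.24 CPM per kb.

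With insulin, no member passed an adjusted p of 0.05, and neither did any other gene (0 of 13377, 0.0%, quasi-likelihood test of edgeR, Benjamini-Hochberg adjusted), the smallest adjusted p being 0.852 for members and for all genes alike. DESeq2 and voom called 0 genes as well. Unadjusted p values under 0.05 were found for 383 genes (2.86% of those tested) by edgeR, 548 by DESeq2 and 213 by voom. The study's own criteria, a log2 fold change of 0.35 or more in size and an unadjusted p under 0.05, were met by 4 members, all lower with insulin (8.89% of 45, against 1.86% of all genes): Klkb1, Serpind1, C9 and C8g. Without vehicle replicate 2 the count was 3 (C9, F11 and Serpind1, 6.67%, against 2.06% of all genes), without vehicle replicate 3 it was 4 (8.89%, against 4.86%), and without vehicle replicate 1 it was 11 (24.4%, against 5.33%). Without insulin replicate 1 or 2 only Klkb1 met them (2.22%, against 0.492% and 0.505% of all genes), and without insulin replicate 3 none did (against 0.496%). With all libraries, no member met them in the higher direction, against 1.0% of all genes. Log2 fold changes were below 0 for 35 members and above 0 for 10, with a median of -0.19, and 51.4% of all genes were below 0 with a median of -0.02. Hepatocyte markers had a median of -0.75 with 6 of 7 below 0, and erythroid markers a median of -1.30 with 4 of 5 lower by the criteria, and their part in the members' values was not tested. Groups were fully separate for 6 members that were lower with insulin (C9, C8g, Serpind1, F9, F11 and Kng1, 13.3%, against 6.04% of all genes) and for 1 that was higher (C4b, 2.22%, against 6.25%). The higher level of C4b turned to a log2 fold change of -0.19 when the GC content of transcripts was corrected for, and C4b shares 34.6% of its 50-base sequences with its near-identical copy C4a, so its count is uncertain.

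Both classes had a median below 0. The median log2 fold change was -0.11 over the 20 complement members (14 below 0 and 6 above, from -1.10 to 0.81) and -0.22 over the 25 coagulation members (21 below 0 and 4 above, from -1.51 to 0.25). Without vehicle replicate 2 the complement median was -0.045, and without insulin replicate 3 it was -0.20. Each class had 2 members that met the study's criteria. The coagulation median minus the complement median was -0.11, and between -0.17 and -0.01 over the alternatives. Within complement, all 6 genes of the terminal pathway were below 0 (median -0.50), although without vehicle replicate 2 their median was -0.16 and C6 (0.03) and C8a (0.16) were above 0, and without vehicle replicate 3 only 5 were below 0. The recognition and initiating proteases (median -0.06), convertase components (0.15, and 0.22 without vehicle replicate 2) and regulators (-0.23, and -0.09 without vehicle replicate 2) were mixed in sign. Within coagulation, the medians were 0.22 for fibrinogen (0.011 without vehicle replicate 3), -0.40 for the clotting factors that generate thrombin (-0.25 without vehicle replicate 2), -0.29 for the contact system, -0.16 for crosslinking and fibrinolysis and -0.24 for the anticoagulants.

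**Figure D2:**
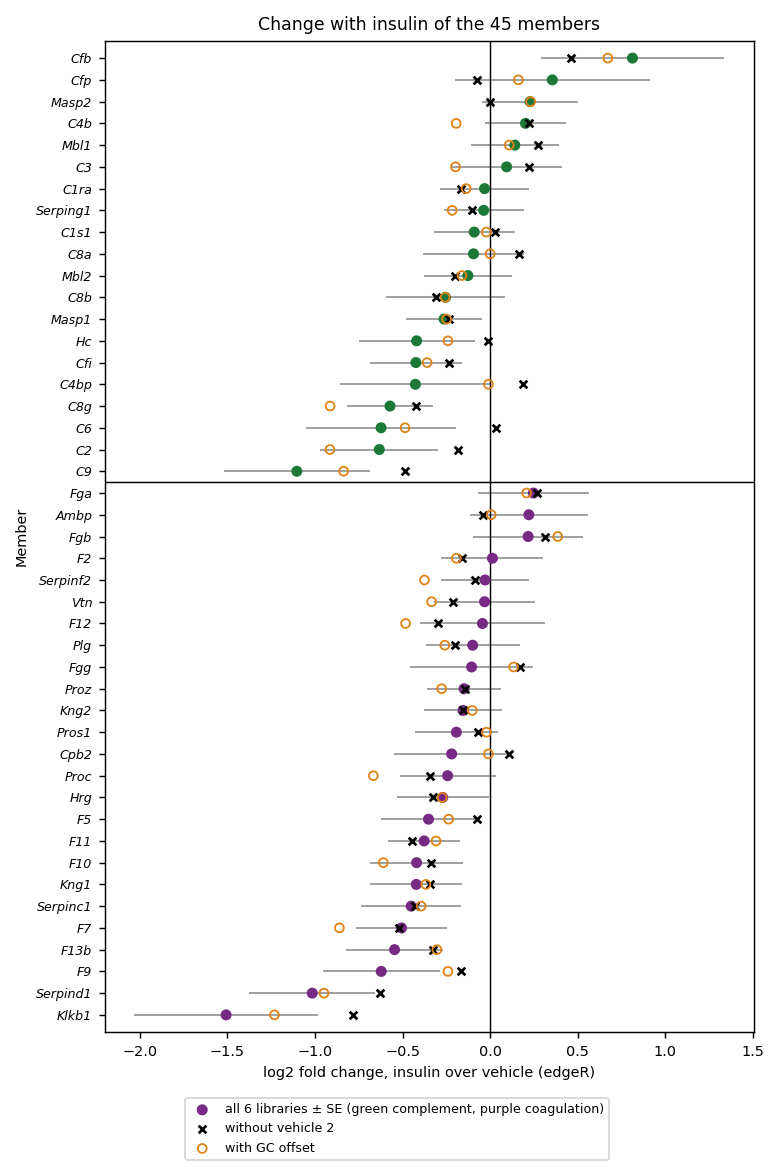
Log2 fold change with insulin over vehicle of the 45 members by edgeR, with complement genes in the upper panel and coagulation genes in the lower. Filled points with lines are the fit to all 6 libraries ± SE (green complement, purple coagulation), crosses the fit without vehicle replicate 2, and open circles the fit with the GC offset. Klkb1, C9 and Serpind1 lie farthest to the left, and their crosses lie closer to 0 than their points.

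In the terminal pathway, C9 (chr15:6445327-6498751, plus strand, 11 exons, GRCm38) had the largest difference of any complement member. Its levels were 465, 1397 and 611 CPM in vehicle replicates 1, 2 and 3 and 376, 349 and 426 CPM in insulin replicates 1, 2 and 3. Every insulin library was below every vehicle library, and vehicle replicate 2 was far above the rest. The vehicle mean was 825 ± 501 CPM and the insulin mean 384 ± 39.2 CPM (SD, n = 3 each), a log2 fold change of -1.10 ± 0.42 (SE, edgeR adjusted p = 0.852). Without vehicle replicate 2 it was -0.48 and still met the study's criteria.

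C8g (chr2:25498651-25501719, minus strand, 7 exons) encodes the lipocalin-like gamma chain of C8, the component that first inserts into the membrane. It was read at 407, 595 and 498 CPM in vehicle and at 346, 361 and 302 CPM with insulin. The groups did not overlap, and the insulin libraries differed little among themselves. The log2 fold change was -0.57 ± 0.24 (edgeR adjusted p = 0.852), and without vehicle replicate 2 it was -0.42 and no longer met the study's criteria. C8a, its partner chain, stood at 572, 900 and 570 CPM in vehicle and 578, 560 and 773 CPM in insulin livers, and C8b at 236, 311 and 467 CPM against 298, 197 and 354 CPM, so both overlapped between groups. C6 (156, 396 and 135 CPM with vehicle, 161, 113 and 172 CPM with insulin) and Hc, the mouse gene for C5 (565, 1188 and 642 CPM against 584, 540 and 666 CPM), were high in vehicle replicate 2 alone. In that library the 6 terminal genes had a median deviation of 0.80 on the log2 scale from each gene's median over the libraries. Of the 6, 5 had their highest level there, as did 4787 of all 13377 genes, while 4999 of the 13377 had their lowest.

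Among the convertase components, C3 overlapped between groups. Levels were 6357, 8469 and 6962 CPM in vehicle and 6443, 6533 and 10282 CPM in insulin livers, so the single high value belonged to insulin replicate 3. The log2 fold change was 0.09 ± 0.32 (edgeR adjusted p = 0.939), and it was -0.15 without that library and -0.20 with the GC offset. C2, the protease of the classical and lectin convertase, had 26.3, 63.0 and 34.1 CPM in vehicle and 29.0, 23.9 and 26.7 CPM in insulin livers, and again vehicle replicate 2 alone stood high (log2 fold change -0.63 ± 0.34, edgeR adjusted p = 0.852, and -0.18 without that library). Its counterpart in the alternative pathway, factor B (Cfb), was scarce, at 4.39, 1.04 and 1.96 CPM in vehicle and 3.24, 4.11 and 5.67 CPM in insulin livers. Vehicle replicate 1 lay within the insulin range and the other vehicle libraries below it, giving 0.81 ± 0.52 (edgeR adjusted p = 0.852, with 1.52 without vehicle replicate 1 and 0.46 without vehicle replicate 2). Cfb and C2 are neighbours on chromosome 17, and an annotated readthrough gene, Gm20547, shares 79.5% of the exonic bases of Cfb and 42.8% of those of C2 on the same strand. Gm20547 itself was listed at 0 in all 6 libraries, and how reads in shared exons were counted is not stated, so the levels of both genes are uncertain. C4b was the member whose groups separated upwards, with 1149, 1189 and 1147 CPM against 1338, 1211 and 1461 CPM (log2 fold change 0.20 ± 0.23, edgeR adjusted p = 0.856, and -0.19 with the GC offset).

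Differences of the recognition and initiating genes were within the spread between libraries. Mbl1 and Mbl2, the mannose-binding lectins, and C1ra, C1s1, Masp1 and Masp2, the proteases that start the classical and lectin pathways, had log2 fold changes from -0.26 to 0.23, and none met the study's criteria. Masp2 was lowest in vehicle replicate 2 (60.3 CPM) and between 104 and 112 CPM in the other 5 libraries, and 54.9% of its exonic bases overlap Tardbp on the other strand. C1ra shares 48.0% of its 50-base sequences with C1rb, and C1s1 21.8% of its own with C1s2. Serping1 varied little, with 869, 770 and 926 CPM in vehicle and 841, 820 and 839 CPM in insulin livers. Its log2 fold change was -0.04 ± 0.23 (edgeR adjusted p = 0.968), and 0.02 without vehicle replicate 3. Factor I (Cfi), which cleaves C3b and C4b, stood at 474, 792 and 650 CPM against 492, 497 and 439 CPM. Vehicle replicate 1 lay among the insulin libraries and the other vehicle libraries above them (log2 fold change -0.42 ± 0.27, edgeR adjusted p = 0.852, and -0.23 without vehicle replicate 2). C4bp, the C4b-binding protein, was at 830, 1695 and 484 CPM in the vehicle libraries and at 744, 748 and 746 CPM in the insulin libraries. The vehicle mice thus held both its highest and its lowest level. Properdin (Cfp), which stabilizes the alternative convertase, was at 22.5, 6.45 and 37.6 CPM in vehicle and 38.6, 25.2 and 21.4 CPM in insulin livers, and it was lowest in vehicle replicate 2 like Cfb.

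**Figure D3:**
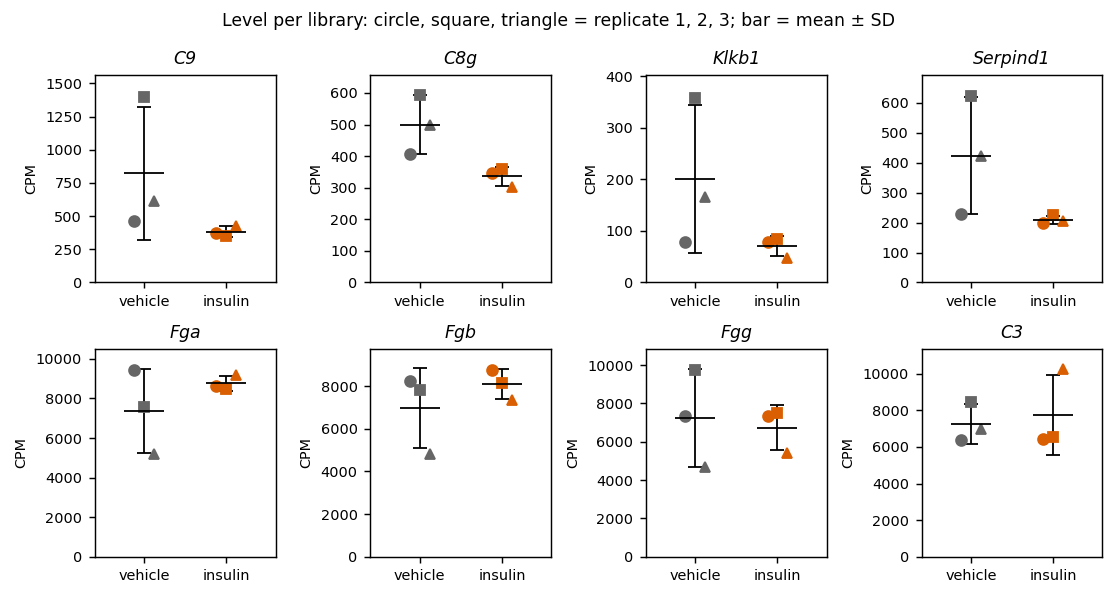
CPM per library of 8 members by group, on axes from 0, with circle, square and triangle for replicates 1, 2 and 3 and bars for the mean ± SD of 3 mice. C9, C8g and Serpind1 separate between the groups, Klkb1 and C3 do not, and the triangle of vehicle replicate 3 is lowest for Fga, Fgb and Fgg.

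In the contact system, Klkb1 (chr8:45266689-45294859, minus strand, 15 exons), whose product prekallikrein is converted to the protease that frees bradykinin from kininogen, had the largest difference of all 45 members. Its levels were 78.4, 358 and 165 CPM in vehicle and 78.8, 84.6 and 47.8 CPM in insulin livers. Vehicle replicate 1 lay inside the insulin range, so the groups overlapped, and the difference came from vehicle replicates 2 and 3. The log2 fold change was -1.51 ± 0.52 (edgeR adjusted p = 0.852) and -0.78 without vehicle replicate 2, where it no longer met the study's criteria. Annotated gene Gm45753, with at most 1 count in a library, shares 43.2% of its exonic bases on the same strand, so the level of Klkb1 is uncertain too. Kng1, the substrate of kallikrein, was at 1523, 2151 and 2198 CPM in vehicle and 1510, 1517 and 1357 CPM in insulin livers, so the groups were separate although vehicle replicate 1 lay just above the highest insulin library. Kng1 shares 17.2% of its 50-base sequences with Kng2. F12, which activates prekallikrein, had its lowest and its highest level in vehicle replicates 2 and 3 (273 and 694 CPM).

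Of the anticoagulants, Serpind1 (chr16:17331371-17343575, plus strand, 5 exons), which encodes the thrombin inhibitor heparin cofactor II, was at 228, 622 and 422 CPM in vehicle and 199, 226 and 204 CPM in insulin livers. The groups did not overlap, but vehicle replicate 1 stood just above the highest insulin library. The means were 424 ± 197 and 210 ± 14.0 CPM (SD, n = 3 each), a log2 fold change of -1.02 ± 0.36 (edgeR adjusted p = 0.852) that was -0.63, and still met the study's criteria, without vehicle replicate 2. Serpinc1, the gene of antithrombin, had 1231, 1753 and 2166 CPM against 1264, 1232 and 1271 CPM. Its vehicle replicate 1 was the lowest library of all and the other vehicle libraries were the highest, and 34.4% of its exonic bases overlap Zbtb37 on the other strand. Protein C (Proc) and its cofactor protein S (Pros1) and protein Z (Proz) had log2 fold changes of -0.24, -0.19 and -0.15, none past the study's criteria.

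Of the factors that generate thrombin, F7, F9 and F10 depend on vitamin K, F11 activates F9, and F5 is the cofactor of F10. F9, the gene of the haemophilia B factor, was at 220, 477 and 234 CPM in vehicle and 209, 196 and 200 CPM in insulin livers, without overlap and with 1 vehicle library well above the others (log2 fold change -0.62 ± 0.33, edgeR adjusted p = 0.852, and -0.17 without vehicle replicate 2). F7, the factor that starts clotting with tissue factor, was at 56.3, 75.1 and 99.8 CPM against 51.4, 51.0 and 60.3 CPM, overlapping by vehicle replicate 1 alone (log2 fold change -0.51 ± 0.26, edgeR adjusted p = 0.852, and -0.28 without vehicle replicate 3). F10 had 311, 490 and 528 CPM in vehicle and 328, 332 and 334 CPM in insulin livers, its vehicle replicate 1 being the lowest of the 6. F5 was at 321, 548 and 354 CPM in vehicle and 330, 309 and 318 CPM in insulin livers, highest in vehicle replicate 2 (log2 fold change -0.35, and -0.08 without that library). F11 was the only member of the non-overlapping set with its highest level in vehicle replicate 1, at 47.6, 37.6 and 40.3 CPM against 31.5, 30.8 and 34.4 CPM. Prothrombin, F2, was at 1508, 1179 and 2128 CPM in vehicle and 1662, 1552 and 1642 CPM in insulin livers. All insulin values of F2 lay between the vehicle extremes.

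F13b, the carrier subunit of the factor that crosslinks fibrin, was at 163, 300.1 and 243 CPM in vehicle and 182, 154 and 147 CPM in insulin livers. Vehicle replicate 1 fell within the insulin range and the other vehicle libraries were above it (log2 fold change -0.55 ± 0.28, edgeR adjusted p = 0.852, and -0.33 without vehicle replicate 2). The fibrinolysis genes Plg, Cpb2, which removes the lysines that plasminogen binds, and Serpinf2, the plasmin inhibitor, had log2 fold changes of -0.10, -0.22 and -0.03. Of the adhesive and carrier proteins, vitronectin (Vtn) was at 1784, 1312 and 2315 CPM in vehicle and 1725, 1778 and 1789 CPM in insulin livers (log2 fold change -0.03). Ambp, the precursor of a protease inhibitor, was at 1692, 911 and 2001 CPM against 1692, 1659 and 2013 CPM (0.22, and -0.04 without vehicle replicate 2). Both were lowest in vehicle replicate 2, where C9, Klkb1 and Serpind1 were highest. The histidine-rich glycoprotein gene Hrg had a log2 fold change of -0.27, with vehicle replicate 1 below all insulin libraries and the other vehicle libraries above them.

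Fibrinogen, the clot's building block, was lowest in the library where most other coagulation genes were highest. Its 3 chains are encoded by Fgg (chr3:83007724-83015049, plus), Fga (chr3:83026076-83033627, plus) and Fgb (chr3:83040141-83049863, minus), whose promoters are printed above, and assemble in equal numbers. Fga was at 9416, 7558 and 5167 CPM in vehicle and 8635, 8478 and 9163 CPM in insulin livers. Fgb was at 8244, 7836 and 4839 CPM against 8779, 8163 and 7370 CPM. Fgg was at 7331, 9752 and 4672 CPM against 7339, 7479 and 5393 CPM. All 3 had their lowest level in vehicle replicate 3, and vehicle replicates 1 and 2 overlapped the insulin libraries. The summed level of the chains was 24991, 25146 and 14679 CPM in vehicle and 24754, 24120 and 21926 CPM in insulin livers. Log2 fold changes were 0.25 ± 0.32 for Fga, 0.22 ± 0.31 for Fgb and -0.11 ± 0.35 for Fgg (edgeR adjusted p = 0.860, 0.871 and 0.939). Without vehicle replicate 3 they were 0.045, 0.011 and -0.34, and that of Fgg was 0.13 with the GC offset. Relative to Fgb, Fga ran from 0.965 to 1.24 and Fgg from 0.732 to 1.24 over the libraries.

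**Figure D4:**
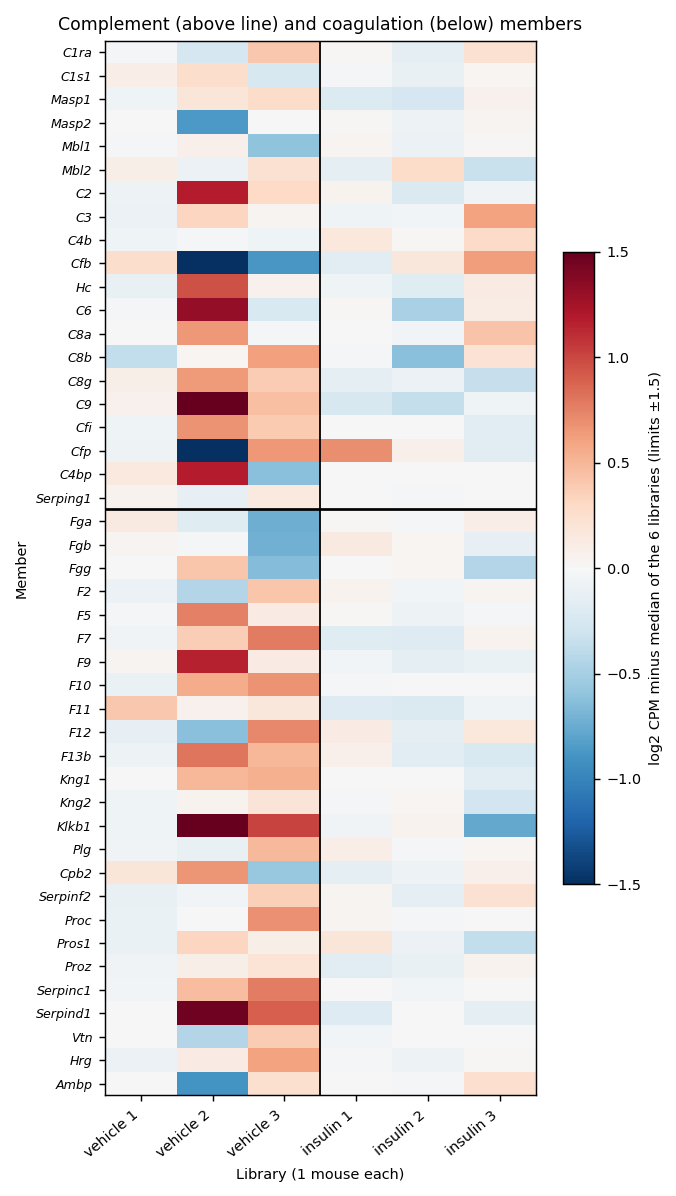
Deviation of each member in each library, as log2 CPM minus the gene's median over the 6 libraries (red above, blue below, colours limited at ±1.5), with complement above the line and coagulation below. Vehicle replicates 2 and 3 carry most of the colour, vehicle replicate 1 looks like the insulin libraries, and the 3 fibrinogen rows are blue in vehicle replicate 3 while most coagulation rows below them are red.

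Read library by library, the members spread more among vehicle libraries than among insulin libraries. Of the 45, 40 had a larger SD of log2 CPM among vehicle than among insulin libraries (medians 0.41 and 0.13, against 0.52 and 0.18 over all genes). The highest vehicle value was over 2 times the lowest for 14 members, and this held for 0 members among insulin libraries. Neither this count nor that of 40 is given here for all genes. The median SD of all genes was also larger among vehicle libraries, so the wider spread is not particular to the members. Vehicle replicate 1 lay within the insulin range for 26 members (52.1% of all genes did), with 11 above and 8 below. Vehicle replicate 2 lay within it for 6 members, with 27 above and 12 below, while over all genes 15.9% were within and 41.0% and 43.1% above and below. For vehicle replicate 3 the counts were 9 within, 27 above and 9 below, against 29.3%, 34.8% and 35.9% of all genes.

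The classes differed most in vehicle replicate 3. In vehicle replicate 2 the median deviation was 0.22 over complement and 0.12 over coagulation genes, and in vehicle replicate 3 it was 0.10 and 0.38. Coagulation minus complement was thus 0.27 in vehicle replicate 3 and between -0.11 and 0.04 in the other 5 libraries. In vehicle replicate 3, 21 of 25 coagulation genes lay above their own median and 13 had their highest level. The 4 below were the fibrinogen chains (median deviation -0.72) and Cpb2, and the 22 coagulation genes other than fibrinogen had a median of 0.45. The median over all 13377 genes was -0.01 in vehicle replicate 2 and -0.001 in vehicle replicate 3. In vehicle replicate 3, 6654 of these genes lay above their own median and 3130 had their highest level. With 1 library of this kind, the pattern of the classes is a description of that library.

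The members' deviations in vehicle replicate 2 went with base composition. The 23 members whose transcripts had a GC content at or below the members' median of 48.2% had a median deviation of 0.65 there, with 21 of 23 above their own median. The 22 members of higher GC content had a median of -0.07 with 9 above. In vehicle replicate 3 the order was the other way, 0.12 against 0.36, and in vehicle replicate 1 both were close to 0 (-0.01 and -0.06). The same split was not made for all genes, so it cannot be said whether the pattern is particular to the members. C9 (43.4% GC), Klkb1 (43.2%) and Serpind1 (47.3%) belong to the lower set and C8g (54.0%) to the higher one. With the GC offset, the log2 fold changes of C9, Klkb1, Serpind1 and C8g were -0.84, -1.23, -0.95 and -0.91, all past the study's criteria, and F7 and Proc met these too, making 6 members (13.3%, against 2.84% of all genes with the offset). Over the 13 alternatives run, Klkb1 met the criteria in 10, C9 and Serpind1 in 9 each and C8g in 5.

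**Figure D5:**
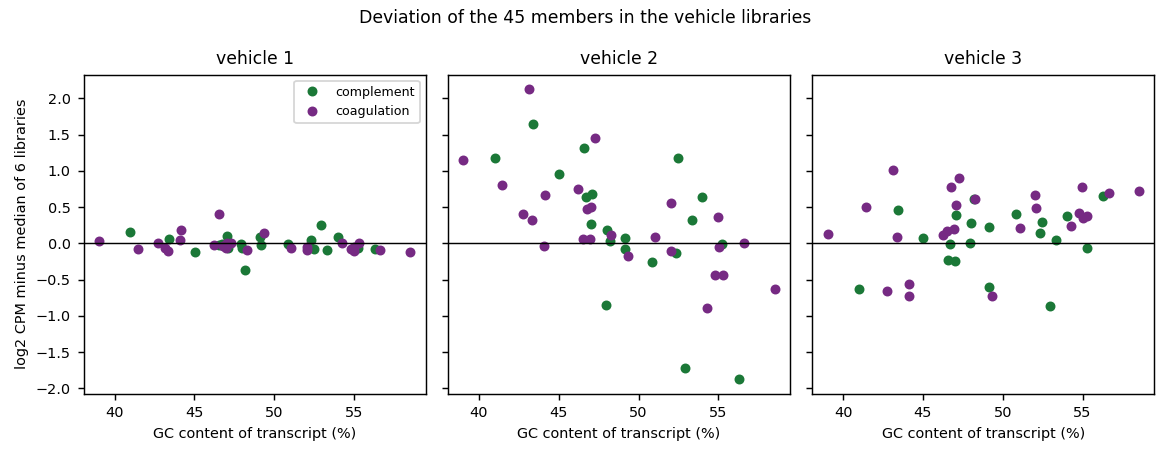
Deviation of the 45 members (log2 CPM minus the median of the 6 libraries) in each vehicle library against the GC content of the transcript in percent, green for complement and purple for coagulation. The points are flat near 0 in vehicle replicate 1, descend with GC content in vehicle replicate 2, where the 23 members of lower GC content have a median of 0.65, and are mostly above 0 in vehicle replicate 3.

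Other genes of both systems were taken from fixed lists outside the 45. Of 30 further complement genes, 26 were tested and 2 met the study's criteria, both lower with insulin and 0 higher, with a list median of -0.01. Cfhr2, which encodes a factor H-related protein, was at 383, 1152 and 759 CPM in vehicle and 346, 338 and 338 CPM in insulin livers, and every vehicle library exceeded every insulin library (log2 fold change -1.17 ± 0.39, edgeR adjusted p = 0.852, and -0.74 without vehicle replicate 2). Vehicle replicate 2 was highest and vehicle replicate 3 next, and Cfhr2 met the criteria in 9 of 13 alternatives. Of 30 further coagulation genes, 25 were tested, and Vkorc1, the enzyme that recycles vitamin K for the clotting factors, was the 1 that met the criteria. Its levels were 9.15, 20.4 and 10.5 CPM in vehicle and 7.34, 7.01 and 7.56 CPM in insulin livers, a log2 fold change of -0.87 ± 0.34 (edgeR adjusted p = 0.852) that was -0.43 without vehicle replicate 2. Vkorc1 met the criteria in 8 of 13 alternatives, and its list had a median of 0.02 and 0 genes higher by the criteria.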

How the data were processed

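Liver RNA of 6 mice was sequenced, 3 per group, each library from 1 mouse. By the study's methods the authors prepared NEBNext Ultra libraries and sequenced them on an Illumina HiSeq and, per the submitters' processing notes, aligned reads with Bowtie2 2.2.3 to mm10. The authors deposited raw read counts per gene, not normalized or pooled. The counting program, its annotation and its use of strand are not given in the sources used here, which leaves overlapping genes and near-identical copies uncertain. Reads across exon junctions may be lost where alignment is not spliced, lowering genes with many short exons.

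Computed here: filterByExpr of edgeR 4.0.16 (R 4.3.3, minimum count 10, minimum total 15) kept 13377 genes. TMM scaling was followed by glmQLFit and glmQLFTest with no covariate, and Benjamini-Hochberg adjustment ran over all of them. Log2 CPM used a prior count of 2. The fit was tested on simulated data. Coordinates, length and GC content are from GENCODE M21 (GRCm38), in which 54495 of 54532 gene identifiers (99.93%) were found, using the longest protein-coding transcript. Shared sequence between gene copies was counted as identical runs of 50 bases. Promoters are from RefSeq (GRCm38.p6). Alternatives were RLE factors, no filter, DESeq2 1.42.0 (the study's tool), voom of limma 3.58.1 with quality weights, a replicate block, a GC offset (loess span 0.5, longest transcript of any kind), and leaving out each library. An exact permutation test of 3 against 3 cannot go below p = 0.1 and was not used. Depth was 18449986 to 21827619 counts, and the biological coefficient of variation (edgeR's term for the spread between libraries of a group) was 0.357. Which of them limited precision was not tested. Vehicle replicate 2 had 16470 genes detected and a TMM factor of 0.829. The other libraries had 18389 to 18874 genes and factors of 0.971 to 1.09. Voom gave quality weights of 0.122 to vehicle replicate 2, 0.429 to vehicle replicate 3 and 1.34 to 3.29 to the rest. Whether the mice or their preparations differed was not tested.

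Given in full were, per class, the 5 members with the smallest p, the 2 with the highest level per length, the fibrinogen chains and any member with p under 0.05; of each pathway list, up to 4 genes with p under 0.05 or else the smallest. A further listed gene past these limits is not reported here. Any other gene was named with its values already known. The members and lists were chosen with earlier results of these data known, so their directions are no independent evidence.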

Additional observations from a re-analysis of the deposited data

How the results depend on the processing

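No alternative gave any gene or member an adjusted p under 0.05 (smallest member value 0.473, edgeR without vehicle replicate 1; highest 1.0). The 4 members that met the study's criteria were the same 4 with RLE factors and with DESeq2 (8.89%, against 2.06% and 1.62% of all genes). Voom gave 2 (C9 and F11, 4.44%, against 0.785% of all genes) and the replicate block 2 (Klkb1 and Serpind1, 4.44%, against 0.882%). No filter gave 3 (6.67%, against 1.94%) and either GC offset 6 (13.3%, against 2.84% and 2.90%). Leaving out 1 library gave 0 (without insulin replicate 3, against 0.496% of all genes) to 11 members (without vehicle replicate 1, 24.4%, against 5.33%). It gave 1 each (Klkb1, 2.22%, against 0.492% and 0.505%) without insulin replicates 1 or 2. Members higher by these criteria numbered 0 to 1, the 1 being Cfb (log2 fold change 1.52) without vehicle replicate 1. Of the 13750 genes tested in that fit, 616 were higher. Over all genes, those lower numbered 249, and 447 without the filter, 105 with voom, 118 with the replicate block, 379 with the GC offset, 388 with the GC offset from protein-coding transcripts (added after seeing the data), and 67 to 733 with 1 library left out. Those higher numbered 134, and 295 without the filter, 203 with the block, and 32 to 616 with 1 library left out. Deviations of same-numbered libraries from their group means correlated at -0.04, 0.07 and 0.02, and those of other pairs at -0.11 to 0.09. With 3 libraries per group, these values cannot show whether replicate numbers pair the mice.

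Among the members given in full, C3, Serping1 and Fgg reversed in sign, none past any threshold. C3 had -0.20 and -0.17 with the 2 GC offsets, and -0.15 to 0.22 with 1 library left out, lowest without insulin replicate 3. Serping1 had -0.10 to 0.024 with 1 library left out, highest without vehicle replicate 3. Fgg had 0.055 with voom, and 0.13 and 0.15 with the GC offsets. With 1 library left out Fgg had -0.34 to 0.17, above 0 without vehicle replicate 2 or insulin replicate 3. Other members changed sign as well. Among them, C4b went from 0.20 to -0.19 with the GC offset, and F12 from -0.04 to 0.41 without vehicle replicate 3. Without vehicle replicate 2, C6 went from -0.62 to 0.03 and C4bp from -0.43 to 0.19. Class medians stayed below 0 under every alternative, also with Serping1 and Vtn in neither class, from -0.20 to -0.05 for complement and from -0.28 to -0.09 for coagulation. The cause of these shifts was not tested. The members had at least 17 counts in every library, and Cfb, Cfp and C2 rest on the fewest. Whether depth limited these genes was not tested.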

Other observations

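Acute phase genes and liver transcription factors were read beside the members. With all 6 libraries, none of 20 acute phase genes met the study's criteria (median log2 fold change 0.41, 14 above 0 and 6 below). The smallest p was that of Saa1, a serum amyloid A gene, at 4370, 252 and 217 CPM in vehicle and 5070, 4570 and 6803 CPM in insulin livers (log2 fold change 1.77 ± 1.07, edgeR adjusted p = 0.852). It met the criteria in 3 of 13 alternatives, with a log2 fold change of 4.55 without vehicle replicate 1 (edgeR adjusted p = 0.114), 3.34 with the replicate block and 1.78 without the filter on low counts. Its level was low in vehicle replicates 2 and 3 and in vehicle replicate 1 close to the lowest insulin library. The summed level of the list was 55602, 33186 and 22696 CPM in vehicle and 52041, 51473 and 60121 CPM in insulin livers, and fibrinogen, also an acute phase product, was low in vehicle replicate 3 but not in vehicle replicate 2. Of 18 liver transcription factors 0 met the criteria, and Foxa1 came closest, at 13.8, 9.88 and 11.9 CPM against 19.0, 14.1 and 18.7 CPM (0.54 ± 0.24, edgeR adjusted p = 0.852).

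Chosen after their values were seen, C4a, the copy of C4b, was at 33.6, 6.75 and 4.72 CPM in vehicle and 26.5, 25.7 and 36.3 CPM in insulin livers, the pattern of Saa1 rather than that of C4b. Alb was at 48158, 138554 and 72891 CPM in vehicle and 48998, 52960 and 38255 CPM in insulin livers, highest in vehicle replicate 2 as were C9 and Klkb1.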
